A study of Sus scrofa with 6 samples.

Results

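The insulin-like growth factor (IGF) axis was followed in messenger RNA from fat, liver and skeletal muscle of pigs (Sus scrofa) of the Berkshire and Korean native breeds. Its members were chosen by gene symbol as IGF1, IGF2, IGF1R, IGF2R and every IGFBP followed by a number. Of 11 symbols sought, 8 had an Ensembl pig gene ID among the 25322 IDs of the count tables. These were IGF1 (ENSSSCG00000000857), IGF1R (ENSSSCG00000030560), IGF2R (ENSSSCG00000004044), IGFBP1 (ENSSSCG00000016728), IGFBP4 (ENSSSCG00000017472), IGFBP5 (ENSSSCG00000025924), IGFBP6 (ENSSSCG00000000261) and IGFBP7 (ENSSSCG00000008913). IGF2, IGFBP2 and IGFBP3 had no match and are not analysed here. Of the 8 genes, 7 passed the filter on low counts. IGF1R collected 2 reads in all 6 libraries together, both in Berkshire muscle, and was too low to test.

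The 6 groups were Berkshire fat, Berkshire liver, Berkshire muscle, Korean native fat, Korean native liver and Korean native muscle, with 1 library in each. RNA came from frozen tissue without further treatment in the labels. The sources used here do not give age, sex, feeding state, the fat depot or the muscle, nor whether the 3 libraries of a breed came from 1 animal. Breed and animal therefore cannot be told apart, and p-values reflect no more than the spread of these libraries. Without replicates, the fit takes as that spread how far the breed difference varies between tissues. Its SE and p-values therefore do not measure the spread between animals of a breed. A tissue mean is given with the SD between its Berkshire and its Korean native library (n = 2).

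IGF1 is a circulating growth factor made largely by liver under growth hormone, and many tissues also make it locally. It acts through the IGF1R tyrosine kinase, while IGF2R, the cation-independent mannose 6-phosphate receptor, takes up IGF2 and sends it to lysosomes. The IGF-binding proteins carry the factors in blood and tissue and limit or deliver them to receptors. Hepatic IGFBP1 transcription is known to be held down by insulin through FOXO transcription factors, so that IGFBP1 is high in fasting.

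The libraries held between 5897407 and 7912093 reads on genes. Levels are read counts scaled to library depth with TMM factors (CPM), and 3 counts in a library, the floor used for a count of 0, correspond to 0.293 to 0.691 CPM. Intervals and floors cover counting error only. The labelled tissues carried their own markers. The summed level of 8 hepatocyte genes was 208093 and 242063 CPM in the liver of Berkshire and of Korean native pigs and 27.2 to 64.7 CPM elsewhere. For 6 skeletal muscle genes the sum was 92488 and 149241 CPM in muscle and 23.0 to 58.1 CPM elsewhere. For 5 adipocyte genes it was 4572 and 3515 CPM in fat, 539 and 320 CPM in muscle, and 27.6 and 31.3 CPM in liver. In these bulk samples, fewer cells of a type and less RNA per cell cannot be told apart.

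The first question was how the IGF axis is divided among the tissues. IGFBP1 was a liver transcript, IGFBP4 was higher in liver and fat than in muscle, IGFBP5 and IGFBP6 were lower in liver than in fat and muscle, and IGFBP7 was higher in fat than in liver. IGF1 and IGF2R did not differ between tissues beyond the spread among libraries. Of the 7 tested members, 4 changed in liver against fat, with 1 up and 3 down in liver. Among all 13810 tested genes 28.7% did (15.2% up and 13.5% down). Against muscle, 4 members changed in liver, 2 of them up and 2 down, where 36.0% of all genes did (18.6% up and 17.4% down). Muscle against fat gave 1 member, lower in muscle, where 16.4% of all genes changed (9.95% up and 6.43% down). In that order, the median log2 difference of the 7 members was -0.40, -0.34 and -0.86, against 0.06, -0.01 and -0.05 over all tested genes. IGFBP1 passed the filter on low counts only through liver, so its difference is in part fixed by that filter. Leaving it aside, 3 of 6 members changed in liver against fat and 3 of 6 against muscle.

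**Figure D1:**
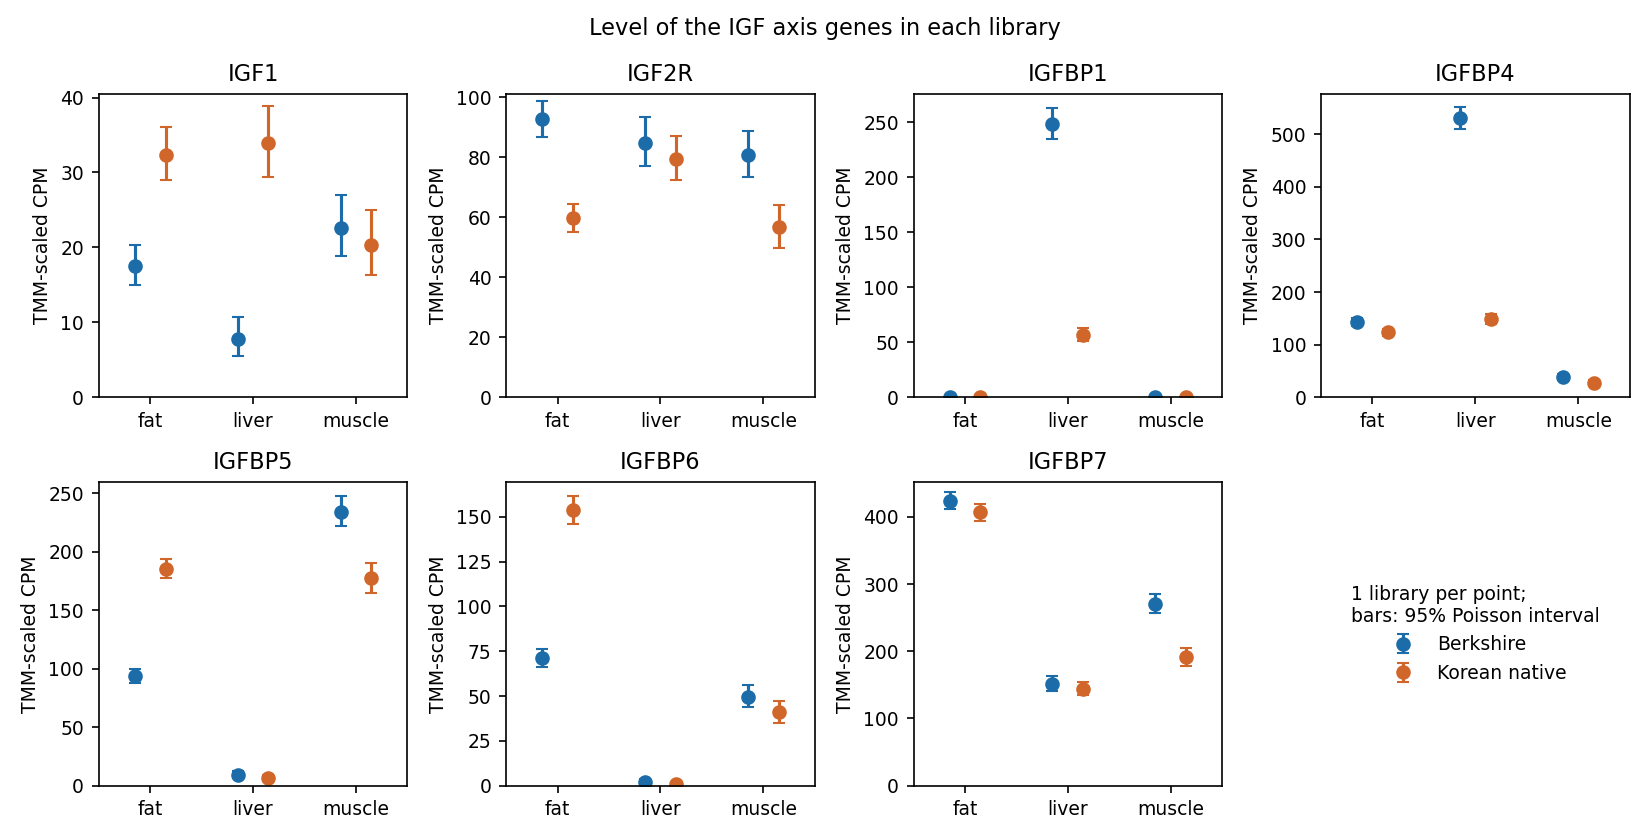
Level of the 7 tested genes in each library in TMM-scaled CPM on linear axes that start at 0, each panel with its own scale. Each point is 1 library and bars are 95% Poisson intervals of the count; IGFBP1 is seen in liver only, and IGF1, IGFBP1 and IGFBP4 lie furthest apart between breeds in liver.

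Among the growth factors, IGF1 stood at 17.5 CPM in Berkshire fat, 7.79 in Berkshire liver, 22.7 in Berkshire muscle, 32.4 in Korean native fat, 33.9 in Korean native liver and 20.3 in Korean native muscle. The lowest and the highest library were thus both liver. The tissue means were 24.9 ± 10.5 CPM in fat, 21.5 ± 1.69 in muscle and 20.8 ± 18.5 in liver (SD, n = 2). No neighbours in this order differed beyond their spread. The log2 difference was -0.40 ± 0.51 (SE) for liver against fat, with an edgeR adjusted p of 0.6, and -0.34 ± 0.53 for liver against muscle, with an adjusted p of 0.66.

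IGF2R, the clearance receptor for IGF2, was the most even member across the libraries. The Berkshire libraries had 92.8 CPM (fat), 84.9 (liver) and 80.7 (muscle), and the Korean native libraries 59.6, 79.6 and 56.6 CPM. Liver had the highest mean (82.2 ± 3.75 CPM), followed by fat (76.2 ± 23.4) and muscle (68.7 ± 17.05). The groups overlapped, and the largest of its tissue differences was 0.29 ± 0.30 on the log2 scale, between liver and muscle (edgeR adjusted p 0.5). With total counts in place of TMM factors, muscle against fat passed for IGF2R (log2 -1.07, adjusted p 0.035, against -0.14 and 0.77). IGF1R, the signalling receptor, had 0 counts in 5 libraries and 0.365 CPM in Berkshire muscle, a value that rests on 2 reads. How much of the transcript the gene model behind this ID covers was not tested, so these counts do not show that the receptor was absent.

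IGFBP1, the insulin-repressed liver binding protein, had 249 CPM in the Berkshire liver and 56.7 CPM in the Korean native one. The fat libraries held 0 and 1 reads, and both muscle libraries held 0. Every liver value therefore lay far above every other library. With 1590 reads in liver and 1 in fat, the ratio of the pooled levels was 2933, with a 95% counting interval from 526 to 115924. Against muscle, liver was at least 247-fold higher, taking the floor of 3 counts in each muscle library. The edgeR adjusted p was 0.00032 against fat and 3e-04 against muscle, but a gene kept by the filter through liver alone had to differ, so these values add nothing to the read counts.

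IGFBP4, which binds IGFs and is cut by the protease PAPPA, stood at 531 and 148 CPM in the liver of Berkshire and of Korean native pigs, 143 and 123 in fat and 38.7 and 27.6 in muscle. All liver and fat values lay above all muscle values. Liver was 9.04-fold higher than muscle (log2 3.18 ± 0.49, adjusted p 0.0027). Muscle was 4.13-fold lower than fat (log2 -2.05 ± 0.46, adjusted p 0.028). That call was lost without Korean native fat (log2 -1.50, adjusted p 0.22), Berkshire muscle (-1.91, 0.077) or Korean native muscle (-2.34, 0.083), and without the breed term (adjusted p 0.06). Liver against fat did not pass (log2 1.13 ± 0.46, adjusted p 0.11), and it passed once Korean native liver was left out (log2 1.83, adjusted p 0.027).

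IGFBP5, a binding protein of connective tissue and muscle, stood at 234 and 178 CPM in muscle (Berkshire, then Korean native), 93.4 and 186 in fat, and 9.18 and 6.78 in liver. Liver lay below all other libraries, while fat and muscle overlapped. Liver was 17.3-fold lower than fat (log2 -4.11 ± 0.49, adjusted p 0.0012) and 25.9-fold lower than muscle (log2 -4.69 ± 0.50, adjusted p 0.00052). Muscle against fat did not pass (log2 0.58 ± 0.42, adjusted p 0.37).

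IGFBP6, which prefers IGF2 over IGF1, stood at 71.1 and 154 CPM in the fat of Berkshire and of Korean native pigs, 49.7 and 41.0 in muscle, and 2.00 and 0.662 in liver. The liver values rest on 10 and 4 reads. Fat, muscle and liver did not overlap. Liver was 84.3-fold lower than fat (log2 -6.40 ± 0.66, adjusted p 0.00068) and 34.7-fold lower than muscle (log2 -5.12 ± 0.64, adjusted p 0.0011). The IGFBP5 and IGFBP6 differences between liver and either tissue passed with each library left out. Muscle against fat did not pass for IGFBP6 (log2 -1.28 ± 0.49, adjusted p 0.12), and it passed without Berkshire fat (log2 -2.06, adjusted p 0.039) and with total counts in place of TMM factors (-2.22, 0.018).

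IGFBP7, a low-affinity binding protein found around blood vessels, stood at 424 and 407 CPM in the fat of Berkshire and of Korean native pigs, 271 and 191 in muscle and 151 and 144 in liver. The tissues did not overlap, and the order fat, muscle, liver held in both breeds. Only the outer step passed, with liver 2.81-fold lower than fat (log2 -1.49 ± 0.33, adjusted p 0.015). That call was lost without Berkshire fat (log2 -1.61, adjusted p 0.063), Berkshire liver (-1.39, 0.12), Korean native fat (-1.38, 0.12) or Korean native liver (-1.60, 0.08). Muscle against fat (log2 -0.86 ± 0.33, adjusted p 0.11) and liver against muscle (-0.63 ± 0.33, 0.18) did not pass. The DESeq2 test did call muscle against fat (log2 -0.89, adjusted p 0.045), as did scaling by total counts (-1.79, 0.012).

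**Figure D2:**
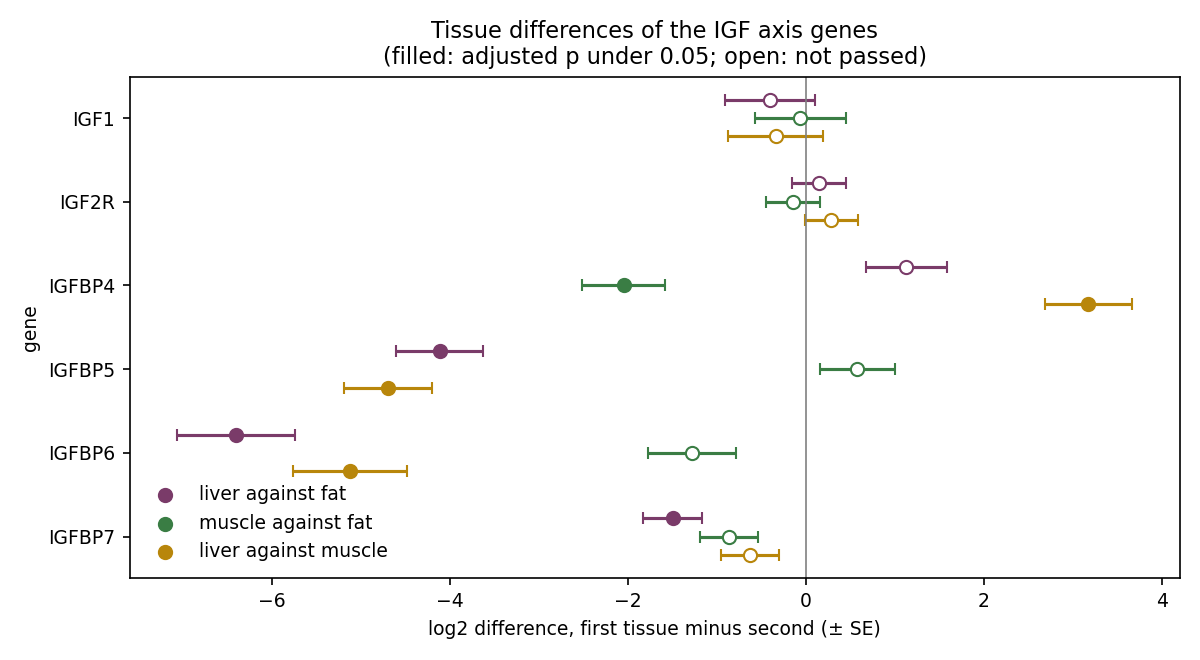
Log2 difference between tissues (first minus second, ± SE) for 6 members, from the additive edgeR model over all 6 libraries, with filled points for an adjusted p under 0.05. IGFBP5 and IGFBP6 lie far to the left for liver against fat and liver against muscle, while IGF1 and IGF2R stay near 0; IGFBP1 is left out because its fitted value depends on libraries with 0 counts.

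Summed markers of stromal cells were lowest in liver, as were IGFBP5 and IGFBP6, while single markers differed. The summed level of 6 fibroblast and matrix genes was 13451 and 18992 CPM in the fat of Berkshire and of Korean native pigs, 21257 and 4771 in muscle and 1263 and 1133 in liver. COL3A1 made up most of the sum in each library (9048 and 12732 CPM in fat). Of these genes 4 fell in liver against fat, where 13.5% of all genes did. Among the 4 were DCN (decorin, log2 -4.53, adjusted p 0.0017) and LUM (lumican, -6.87, 0.00063). PDGFRA, a receptor of mesenchymal cells, did not pass (-1.37, 0.063), nor did FBLN1 (0.04, 0.96). Against muscle, 4 of the 6 were lower in liver, where 17.4% of all genes were. FBLN1 was higher in liver (1.54, 0.042) and PDGFRA did not pass (-0.49, 0.44). For 5 endothelial genes the sum was 1058 and 779 CPM in fat, 524 and 469 in muscle and 401 and 378 in liver. PECAM1 made up most of the sum in fat (735 and 505 CPM), and in PECAM1, ERG and TIE1 all fat values lay above all muscle values and these above all liver values, as for IGFBP7. KDR and TEK did not have that order, and the share of all genes that do was not counted. KDR, a receptor for vascular growth factors, was higher in liver than in muscle (log2 1.33, adjusted p 0.031), and TEK did not pass in any tissue contrast. For 6 smooth muscle and pericyte genes it was 707 and 585 CPM in fat, 886 and 417 in muscle and 253 and 211 in liver. The part of these cells in the tissue differences was not tested.

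The choice of scaling bears on comparisons with fat. With total counts in place of TMM factors, the log2 difference of the median gene moved to -0.94 (liver against fat) and -0.98 (muscle against fat). Called genes then numbered 6954 and 6013 in place of 3959 and 2262, and 16.7% and 12.7% of them were higher in liver or muscle, in place of 53.0% and 60.7%. All tissue calls of the 7 members named above kept their direction and their call under that scaling.

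The second comparison asked which members differed by breed in a single fit over the tissues. None of the 7 passed the edgeR test, and only 15 of 13810 genes (0.109%) did (0.0290% higher and 0.0797% lower in Korean native), with 1103 at an unadjusted p under 0.05. IGFBP1 was among these 1103, with a log2 value of -1.93 ± 0.60 (unadjusted p 0.018, adjusted p 0.49), but only its liver libraries held more than 1 read. DESeq2 and limma-voom called none of the 7 either. IGF1 had a log2 value of 0.93 ± 0.43 (adjusted p 0.67), higher in the Korean native library of 2 of 3 tissues. IGFBP4 had -0.85 ± 0.38 (adjusted p 0.64) and IGF2R -0.41 ± 0.25 (adjusted p 0.73), each lower in the Korean native library of 3 of 3 tissues. IGFBP5, IGFBP6 and IGFBP7 had values of 0.08, 0.12 and -0.21. A test of whether the breed difference itself changes with tissue would leave no residual degrees of freedom, so the tissues are given side by side without a test.

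Liver was the tissue in which the axis differed most between the breeds. IGF1 stood at 7.79 CPM (39 reads) in Berkshire and 33.9 CPM (205 reads) in Korean native liver, a ratio of 4.35 with a 95% counting interval from 3.08 to 6.30. IGFBP1 was 4.39-fold lower in Korean native liver (3.89 to 4.96), and IGFBP4 was 3.59-fold lower (3.33 to 3.88). Thus the growth factor was higher and these 2 binding proteins were lower in the same library. With 1 library a breed no test was made. Of the 6 members with at least 5 CPM in 1 liver library, 1 was at least 2-fold higher and 2 at least 2-fold lower in the Korean native library, against 11.8% of all 10285 genes at that level (6.11% higher and 5.68% lower). The log2 ratio of IGF1 exceeded that of 98.8% of these genes, while 1.23% of them had a lower ratio than IGFBP1 and 1.61% a lower ratio than IGFBP4.

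The other liver members lay close together in the 2 breeds. IGF2R (84.9 and 79.6 CPM), IGFBP5 (9.18 and 6.78 CPM) and IGFBP7 (151 and 144 CPM) had Korean native to Berkshire ratios of 0.937, 0.738 and 0.951, each with a counting interval that included 1. The median log2 breed ratio of the 8 hepatocyte genes was 0.00 in liver, and 0 of 8 were at least 2-fold apart. Summed macrophage genes stood at 859 and 671 CPM, with a median log2 ratio of -0.53 over 6 genes. MARCO, a scavenger receptor of macrophages, went the other way, at 9.78 and 83.7 CPM (8.55-fold higher in the Korean native library). The part of macrophages in the liver ratios was not tested.

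A ratio of reads inside a library does not depend on how libraries are scaled. Per 100 IGFBP1 reads, Berkshire liver held 3.13 IGF1 reads (95% interval 2.21 to 4.30) and Korean native liver 59.8 (50.0 to 71.3). Per 100 IGFBP4 reads, IGF1 reads numbered 1.47 (1.04 to 2.01) and 22.9 (19.6 to 26.7). The 2 binding proteins kept a closer proportion to each other, with 46.9 IGFBP1 reads per 100 IGFBP4 reads in Berkshire liver (43.8 to 50.2) and 38.4 in Korean native liver (33.8 to 43.5).

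**Figure D3:**
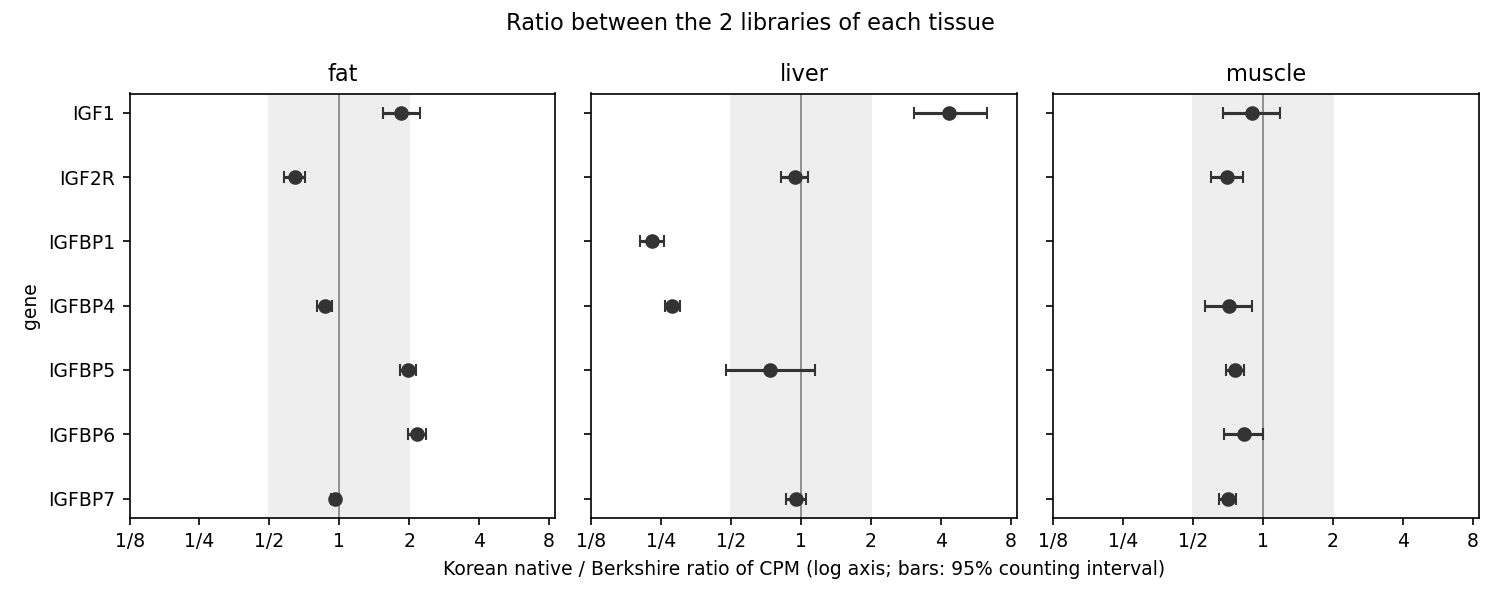
Ratio of Korean native to Berkshire CPM in fat, liver and muscle on a log axis, for members that reached 5 CPM in either library; bars are 95% counting intervals and the grey band marks less than 2-fold. IGF1 in liver (4.35), IGFBP6 in fat (2.16), and IGFBP1 and IGFBP4 in liver (4.39-fold and 3.59-fold lower) lie outside the band.

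In fat the pattern was another one. IGFBP6 was 2.16-fold higher in the Korean native library (71.1 and 154 CPM, interval 1.98 to 2.36), the only member of 6 past 2-fold, against 8.51% of all 10139 genes (4.71% higher and 3.80% lower). IGFBP5 lay just inside that limit at a ratio of 1.99 (1.84 to 2.15), and IGF1 at 1.85 (1.54 to 2.23). IGF2R was 1.56-fold lower (1.40 to 1.73) and IGFBP4 1.16-fold lower (1.07 to 1.25). IGFBP7 had a ratio of 0.959, with an interval from 0.919 to 1.00. Of the 6 fibroblast and matrix genes none was 2-fold apart in fat, with a median log2 ratio of 0.47. DCN stood at 1275 and 2403 CPM there, a ratio of 1.88. The 5 adipocyte genes summed to 4572 and 3515 CPM, and 2 of 5 were at least 2-fold lower in the Korean native library. Of 5 macrophage genes at that level, 2 were at least 2-fold higher there, CD68 (2.71-fold) and CD14 (2.39-fold), with a median log2 ratio of 0.96. Whether stromal, adipocyte or macrophage content bears on IGFBP5 and IGFBP6 in fat was not tested.

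In muscle no member was 2-fold apart, against 20.6% of all 10142 genes (10.5% higher, 10.1% lower). All 6 measured members had lower values in the Korean native library. IGF2R was 1.43-fold, IGFBP7 1.42-fold, IGFBP4 1.40-fold and IGFBP5 1.32-fold lower, with IGFBP6 at 1.21-fold. IGF1 stood at 22.7 and 20.3 CPM, a ratio of 0.894 with an interval (0.673 to 1.18) that included 1. The median log2 ratio of the 6 was -0.44 against 0.05 over all genes. With total counts the median over all genes moved to -0.28, and 22.2% of the genes past 2-fold were higher in Korean native muscle in place of 51.1%. The summed fibroblast and matrix genes stood at 21257 and 4771 CPM in the muscle libraries, with 4 of 6 at least 2-fold lower in the Korean native one. Adipocyte genes (4 of 5 lower, median log2 ratio -2.01), macrophage genes (4 of 5 lower, -1.35) and smooth muscle and pericyte genes (3 of 6 lower, -0.90) moved the same way. Skeletal muscle genes moved the other way (3 of 6 higher, 0.80). The part of these cells in the ratios of the members was not tested.

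The genes that stand upstream and downstream of the axis were read from lists. The first holds growth hormone signalling and the ternary complex, with 8 of 11 genes measured. IGFALS, the acid-labile subunit that keeps IGFs in the circulation, stood at 23.2 and 36.9 CPM in the liver of Berkshire and of Korean native pigs and at 0.913 to 3.23 CPM elsewhere. It was higher in liver than in fat (log2 3.26 ± 0.38, adjusted p 0.0011) and than in muscle (4.82, adjusted p 0.00033). STAT5A, a transcription factor of the growth hormone receptor, was lower in liver than in fat (log2 -3.14, adjusted p 0.00086) and than in muscle (-2.57, 0.0013). GHR, the growth hormone receptor, did not pass in any tissue contrast. STAT5B was lower (log2 -1.53, adjusted p 0.014) and PTPN6, a phosphatase of blood cells, higher (2.13, 0.02) in liver than in muscle. None of the 8 genes passed between muscle and fat or between the breeds, where 16.4% and 0.109% of all genes did.

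Within liver, GHR stood at 147 CPM in the Berkshire and 401 CPM in the Korean native library, a ratio of 2.72 (2.51 to 2.96). It was the only 1 of the 8 genes that was 2-fold apart there. Among all genes 11.8% were, so the count shows nothing about the list. In fat GHR was 1.70-fold lower in the Korean native library (328 and 193 CPM). IGFALS had a ratio of 1.59 in liver (1.27 to 2.01). STAT5B was 2.13-fold higher in Korean native muscle (71.4 and 152 CPM), and PTPN6 was 2.80-fold lower there (10.96 and 3.91 CPM). Of 7 listed genes with at least 5 CPM in a muscle library, only these were 2-fold apart. Among all genes 10.5% were higher and 10.1% lower. The median log2 ratio of the list in liver was 0.05, against 0.00 over all genes.

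The list of proteases taken to act on binding proteins, and of their inhibitors, held 8 genes, all measured. Whether each of them acts on IGF-binding proteins was not tested. In liver against fat 4 fell and 1, PLG (plasminogen, a liver product), rose, where 13.5% and 15.2% of all genes did. PLG held 27980 and 42513 reads in liver (Berkshire, then Korean native), 9 and 9 in fat and 8 and 10 in muscle. It passed the filter on low counts only through liver, so its rise is in part fixed by that filter. Those that fell were HTRA1 (log2 -2.36, adjusted p 0.0094), PRSS23 (-2.28, 0.0077), ADAM12 (-1.70, 0.05) and STC1 (-3.79, 0.0018), and STC1, an inhibitor of PAPPA, also fell in muscle against fat (-2.02, 0.025). The ADAM12 value lay just under the threshold before rounding. PAPPA, the main protease of IGFBP4, reached at most 2.92 CPM and did not pass. STC2, another PAPPA inhibitor, stood at 3.42 and 26.2 CPM in the fat of Berkshire and of Korean native pigs and at 14.4 and 3.45 CPM in muscle, so that its ratio had opposite directions in these tissues (7.65-fold higher and 4.18-fold lower). In Korean native fat 2 of 6 genes were at least 2-fold higher (STC2, PRSS23) and 1 lower (PAPPA2, 3.52-fold). Among all genes 4.71% and 3.80% were. In Korean native muscle 4 of 6 were lower (PAPPA2 5.55-fold, ADAM12 4.10-fold, STC1 2.69-fold, STC2) and 0 higher. Among all genes 10.1% and 10.5% were. These 4 reached 5 CPM in the Berkshire muscle library only, so their direction is in part fixed by that minimum. They rest on few reads (PAPPA2 35 and 5, ADAM12 31 and 6, STC1 44 and 13, STC2 79 and 15, Berkshire first). In fat, STC2 reached 5 CPM in the Korean native library only and PAPPA2 in the Berkshire library only.

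Of 30 genes of insulin and IGF receptor signalling, 25 were measured. In liver against fat 2 rose and 4 fell, in muscle against fat 3 rose and 1 fell, and in liver against muscle 2 were higher and 6 lower in liver. The shares of all genes called in these contrasts were 28.7%, 16.4% and 36.0%, close to those of the list, so the counts show nothing about the list. GRB14, an adaptor that inhibits the insulin receptor, was a liver transcript at 71.3 and 67.0 CPM against 0.684 to 2.37 CPM elsewhere (liver against fat, log2 6.26, adjusted p 0.00015). Its relative GRB10 was lower in liver than in fat (log2 -1.38, adjusted p 0.037) and higher in muscle than in fat (1.47, 0.044). AKT2, an insulin-responsive kinase, was lower in liver than in fat (-1.49, 0.021). IRS1, the docking protein of both receptors, was higher in muscle than in fat (log2 3.06, adjusted p 0.026), with 42.0 CPM in Berkshire and 280 CPM in Korean native muscle. None of the 25 passed between the breeds over tissues, and the list median was 0.02 on the log2 scale. INSR, the insulin receptor itself, stood at 34.3 and 12.4 CPM in the liver of Berkshire and of Korean native pigs.

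Genes that insulin lowers through FOXO factors share that regulation with IGFBP1, and 10 of 17 listed were measured. In liver against fat 2 rose and 2 fell, in muscle against fat 3 rose and 1 fell, and in liver against muscle 3 were higher and 4 lower in liver. The shares of all genes called in these contrasts were 28.7%, 16.4% and 36.0%. Between the breeds 1 of 10 changed, where 0.109% of all genes did. This was PCK1 (a gluconeogenic enzyme), which was lower in the Korean native libraries (log2 -3.21 ± 0.33, adjusted p 0.037). The list was chosen with earlier results for PCK1 and PDK4 known, so its direction is no independent evidence. In liver, where IGFBP1 was 4.39-fold lower, 5 of 9 listed genes were at least 2-fold lower in the Korean native library and none was higher, where 5.68% of all genes were lower. They were PCK1 (2334 and 293 CPM), PDK4 (326 and 110 CPM), BCL6 (94.0 and 39.7 CPM), INSR and FBXO32 (7.79 and 2.65 CPM). FBXO32 rests on 39 and 16 reads there and reached 5 CPM in the Berkshire library only, so its direction is in part fixed by that minimum. ANGPTL4 (89.5 and 133 CPM), CITED2 (46.5 and 68.5 CPM) and SESN1 (27.6 and 38.4 CPM) had higher values there, each less than 2-fold. The median log2 ratio of the list was -1.24 in liver, -1.34 in fat and -1.13 in muscle. At least 2-fold lower were 5 of 8 genes in fat (3.80% of all genes) and 6 of 10 in muscle (10.1% of all genes). PCK1 in muscle rests on 33 and 3 reads and reached 5 CPM in the Berkshire library only. Whether insulin or FOXO factors bear on these ratios or on that of IGFBP1 was not tested.

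**Figure D4:**
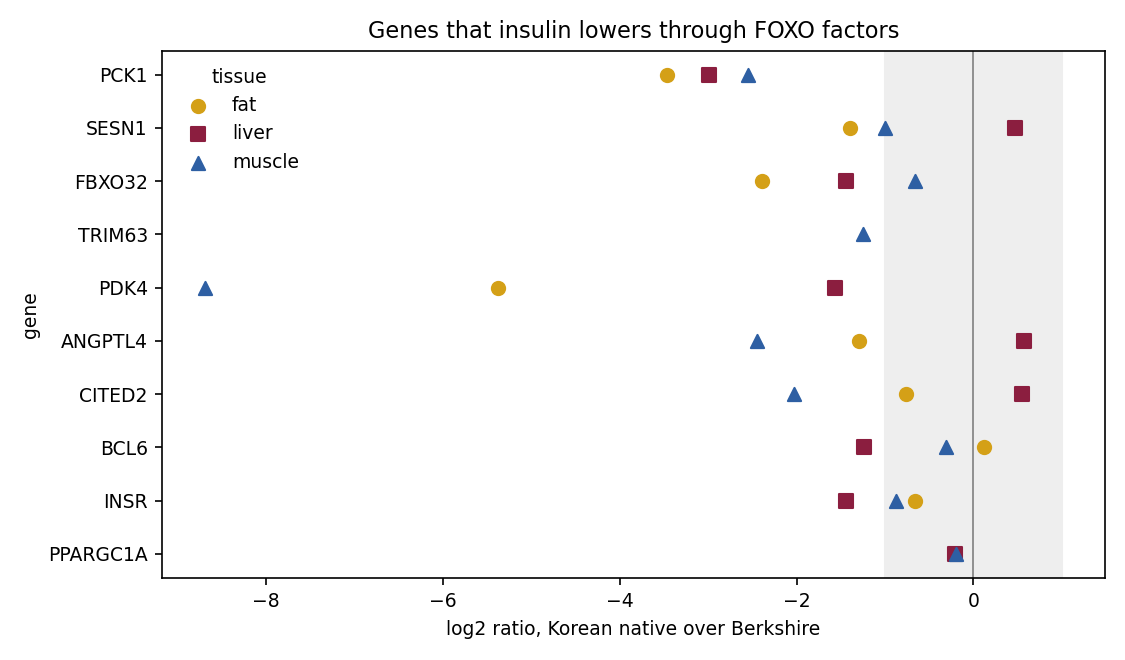
Log2 ratio of Korean native over Berkshire for 10 genes that insulin lowers through FOXO factors, with 1 symbol per tissue where a library reached 5 CPM; the grey band marks less than 2-fold. Most points lie left of 0, PDK4 in muscle lies furthest, and in liver ANGPTL4, CITED2 and SESN1 lie right of 0; the liver and muscle symbols of PPARGC1A overlap.

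Of the 7 listed regulators of the IGF2 transcript and locus, 3 were tested. PLAGL1, a zinc finger factor of imprinted genes, was lower in liver than in fat (log2 -1.89, adjusted p 0.032) and than in muscle (-2.30, 0.014). IGF2BP2 and KHSRP did not pass in any contrast. IGF2BP1 had 0 counts in all 6 libraries.

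For each tested member, the genes of nearest profile were sought among 7497 genes with a symbol and a mean of at least 5 CPM. Nearness was the root mean square distance of log2(CPM + 1) over the 6 libraries, each gene centred on its own mean. The libraries are shared by all genes, so these are descriptions. IGFBP1 lay nearest to CPN2 and FETUB (distances of 0.18 and 0.22). CPN2 stood at 207 and 63.7 CPM in the liver of Berkshire and of Korean native pigs and FETUB at 292 and 93.4 CPM, and both were at 0.197 CPM or less in the other libraries. IGFBP4 lay nearest to MOCOS, SLC5A6 and BTG3 (0.24, 0.26 and 0.30). IGFBP5 had VIT and OLFML2B among its nearest (0.24 and 0.30), and IGFBP6 lay nearest to TNXB, MEDAG and FBLN2 (0.30, 0.38 and 0.43). TNXB, tenascin X of the connective tissue matrix, stood at 299 and 635 CPM in fat, 225 and 143 in muscle and 7.19 and 7.77 in liver. IGFBP7 lay nearest to ARRB1 and FAS (0.10 and 0.11) and IGF2R to CENPI, HNRNPH3 and CENATAC (0.10, 0.11 and 0.11). IGF1 lay nearest to POLD2, KIF1A and TIPARP (0.27, 0.28 and 0.29), and TIPARP shared its lowest value in Berkshire liver (13.0 CPM) and its highest in Korean native liver (48.3 CPM).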

How the data were processed

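The authors deposited raw read counts per Ensembl gene ID for each library. Per the submitters' processing notes, reads were aligned with TopHat to Sscrofa10.2 and counted with HTSeq 0.5.3p3. For strand, counting mode and annotation release the sources used here give nothing, and overlapping genes cannot be told apart. The closing entries that name no gene were left out. Among them, reads that overlapped no counted feature made up 45.9% to 52.5% of a library and reads aligned to several places 14.1% to 20.8%. Symbols came from a supplied table that matched 11804 of 25322 IDs (46.6%). No sequence table or genome of that build was used, so neither sequences nor coordinates are printed.

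Tissue and breed were fitted as additive terms to all libraries (edgeR 4.0.16, R 4.3.3, TMM factors, filterByExpr, two-sided quasi-likelihood test, Benjamini-Hochberg adjusted p under 0.05 over 13810 genes). It leaves 2 residual degrees of freedom. The SE was taken as the absolute log2 value divided by the root of its F statistic. Within a tissue, log2 ratios used a prior count of 2 and no test. Intervals are exact Poisson or binomial at 95%. Scripts were tested on simulated data. Alternatives used DESeq2 1.42.0, limma 3.58.1, other scalings and filters, and each library left out. Named genes are all members, the most abundant genes of each list, and the 3 nearest profiles, a few of which are not reported here. Some list genes with a call or a large ratio were named after their values were seen. Members and lists were chosen with earlier results of these data known.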

Additional observations from a re-analysis of the deposited data

Results flagged for a closer look

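IGFBP5 had breed ratios of opposite direction in fat and muscle. The Korean native library was higher in fat (ratio 1.99, 93.4 and 186 CPM) and lower in muscle (1.32-fold, 234 and 178 CPM), so that the log2 ratios differed by 1.39. IGFBP6 did the same, with a ratio of 2.16 in fat and 1.21-fold lower in muscle, and log2 ratios that differed by 1.38. The counting intervals of all these ratios excluded 1, that of IGFBP6 in muscle barely (0.679 to 0.99992). With 1 library per breed and tissue the difference was not tested.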

How the results depend on the processing

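The labels give no replicate numbers. No paired analysis was possible because each breed and tissue has 1 library, and breed already serves as a term of the tissue model. Genes called numbered 3959 for liver against fat (6954 with total counts, 2451 to 4823 with 1 library left out), 2262 for muscle against fat (6013 and 864 to 2648, lowest without Korean native fat) and 4971 for liver against muscle (3346 to 4996). For the breeds over tissues 15 genes were called, 94 with DESeq2, 87 without a filter, 0 in edgeR once the tissue term was dropped (114 before adjustment, at p under 0.05) and 16 to 83 with 1 library left out. Genes 2-fold apart numbered 863 in fat and 1212 in liver, 1591 and 1945 with a minimum of 1 CPM, and 485 and 735 with 5 CPM in both libraries. Of the alternative values of the members in tests, 317 kept direction and call, 8 lost and 6 gained a call, and 19 changed sign, each of a value that had not passed. With total counts these were IGF2R for liver against fat (-0.86), IGFBP5 for muscle against fat (-0.35), and IGFBP5 (-0.0793) and IGFBP6 (-0.0675) between breeds. IGFBP1 between breeds was 0.21 in DESeq2. With 1 library left out, the log2 value ranged for IGF1 from -1.44 to 0.30 (liver against fat), -1.08 to 0.64 (muscle against fat) and -1.30 to 0.48 (liver against muscle). It ranged for IGF2R from -0.10 to 0.38 (liver against fat) and -0.32 to 0.0409 (muscle against fat), and for IGFBP5 from -0.0667 to 1.34 (muscle against fat). Between breeds it ranged from -2.12 to 2.24 for IGFBP1, -0.42 to 0.39 for IGFBP5 and -0.61 to 0.55 for IGFBP6. The cause was not tested, except that IGFBP1 without a liver library has no pair of libraries above 1 read. Of the alternative ratios within a tissue, 90 stayed inside the counting interval and 5 moved out of it, all with total counts. Depth limits IGFBP6 in liver (10 and 4 reads) and PAPPA. It also limits PAPPA2, ADAM12, STC1, STC2 and PCK1 in muscle and FBXO32 in liver.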
